A study of Homo sapiens with 12 samples.

Results

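The constitutive proteasome is the subject of this account of a microarray series on PANC-1, a cell line established from a human adenocarcinoma of the pancreatic duct. The rule for its members used only names and took every gene whose symbol joins PSMA, PSMB, PSMC, PSMD or PSME to a number, without PSMB8, PSMB9 and PSMB10, the catalytic subunits of the immunoproteasome. This gave 39 genes among the 13422 genes with a named feature on the array, with PSMB11 not among the named features. They were 8 subunits of the alpha ring and 7 of the beta ring of the 20S core, 6 ATPases of the 19S cap, 14 PSMD genes and 4 activators. The 14 PSMD genes are called the other cap proteins below, though PSMD5, PSMD9 and PSMD10 encode chaperones of cap assembly. For each gene the feature with the highest mean over all 12 arrays was used, since PSMA1, PSMA3, PSMD13 and PSME1 had several.

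Total RNA of the cells was hybridised to 1-colour (Cy3) arrays, with 3 arrays in each of 4 groups and culture for 4 days. The HPM group was PANC-1 cells that shared a transwell, in which a membrane keeps the cell types apart, with tumor-associated macrophages (TAMs) under hypoxia, and the HPC group was PANC-1 cells alone under hypoxia. The NPM group was PANC-1 cells with TAMs under normoxia, and the NPC group was PANC-1 cells alone under normoxia. In the study's methods, TAMs were macrophages derived from the monocytic line THP-1 and polarised with interleukins, and the sources used here give no oxygen level for hypoxia. According to the series description the 3 arrays of a group come from independent experiments, and nothing else says what sets them apart, so the p values measure the spread between those arrays.

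The proteasome is the protease that degrades most short-lived and damaged proteins of a cell after they have been tagged with ubiquitin. The 20S core is a barrel of alpha and beta rings, with the catalytic sites inside and a gate formed by the alpha subunits. The 19S cap binds the tagged protein, removes the ubiquitin and uses its ring of ATPases to unfold the chain and feed it into the core, whereas the PSME activators open the gate without ATP. Transcription of the subunit genes is raised together by the factor NRF1, encoded by NFE2L1, which binds antioxidant response elements in many of their promoters, and interferon-gamma induces PSME1, PSME2 and the immunoproteasome subunits.

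The arrays were alike in scale, with array medians between 9.17 and 9.29 on the log2 scale. The signal of 35 of the 39 members lay above the 75th percentile of all features, and PSMA8 and PSMD12 were under the 25th percentile. All 5 epithelial markers (KRT8, KRT18, KRT19, EPCAM and KRT7) were measured, with summed intensities of 44489 to 47616 in HPM, 60344 to 70087 in HPC, 48756 to 53355 in NPM and 57456 to 68582 in NPC. Of 15 macrophage markers 12 had a named feature, with PTPRC, CSF1R and SPI1 not among them, and the mean was under the 25th percentile for 10 of the 12 in HPM, 11 in HPC, 10 in NPM and 10 in NPC. Their summed intensity was 6341 to 6745 in HPM, 4353 to 4665 in HPC, 5628 to 6042 in NPM and 5101 to 5568 in NPC. CD68 was by far the brightest and weighed most in this sum, with log2 means of 12.37, 11.57, 12.16 and 11.85 in HPM, HPC, NPM and NPC. Of the 12 markers 3 had a positive and 9 a negative log2 fold change in HPM vs HPC, and 6 and 6 in NPM vs NPC. In limma, EPCAM and LYZ were the markers called higher in HPM than in NPM. The mean of EPCAM was under the 25th percentile in both normoxia groups. LYZ was under it on every array, with group means of 6.33 in HPM, 6.66 in HPC, 5.30 in NPM and 6.78 in NPC. LCP1, also at a dim signal, was called lower in NPM than in NPC and in HPC than in NPC. The part of these differences in the proteasome results was not tested.

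The 100 bases before the start site of the 8 members that were called in HPM vs NPM and of PSME1, the member with the largest positive difference in NPM vs NPC, are shown first, since these genes carry the results below. The sequences are from RefSeq (GRCh38.p14), 5′ to 3′ on the strand of the gene, and the capitals mark every match on either strand to the motifs searched. For PSMC2 the start site that RefSeq's table gives lies inside the outermost bounds of the gene, so that its window precedes an internal start.
PSMA4 (chr15:78540305-78540404, plus strand): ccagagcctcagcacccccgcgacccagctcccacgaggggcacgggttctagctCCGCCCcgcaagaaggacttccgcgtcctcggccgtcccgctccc
PSMB2 (chr1:35641527-35641626, minus strand): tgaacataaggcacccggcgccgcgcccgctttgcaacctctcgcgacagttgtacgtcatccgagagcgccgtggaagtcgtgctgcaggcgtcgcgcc
PSMC2 (chr7:103347543-103347642, plus strand): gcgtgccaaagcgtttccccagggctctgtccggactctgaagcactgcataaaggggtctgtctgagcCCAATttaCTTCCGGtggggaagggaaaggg
PSMC5 (chr17:63827331-63827430, plus strand): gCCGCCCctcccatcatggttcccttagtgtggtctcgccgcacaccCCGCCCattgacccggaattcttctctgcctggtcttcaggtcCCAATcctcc
PSMD2 (chr3:184299141-184299240, plus strand): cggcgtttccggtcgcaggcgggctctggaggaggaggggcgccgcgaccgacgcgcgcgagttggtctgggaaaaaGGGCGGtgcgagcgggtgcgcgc
PSMD11 (chr17:32444410-32444509, plus strand): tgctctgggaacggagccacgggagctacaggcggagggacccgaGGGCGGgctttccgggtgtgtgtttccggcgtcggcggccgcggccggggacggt
PSME3 (chr17:42833297-42833396, plus strand): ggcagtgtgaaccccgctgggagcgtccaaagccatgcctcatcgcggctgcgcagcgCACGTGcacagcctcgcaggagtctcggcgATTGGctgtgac
PSME4 (chr2:53970994-53971093, minus strand): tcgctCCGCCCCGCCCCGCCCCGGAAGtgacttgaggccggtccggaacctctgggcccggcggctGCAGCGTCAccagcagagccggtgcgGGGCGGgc
PSME1 (chr14:24136094-24136193, plus strand): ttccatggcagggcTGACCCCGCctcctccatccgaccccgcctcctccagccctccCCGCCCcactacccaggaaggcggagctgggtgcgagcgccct

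The motifs were counted in the 250 bases before the start site on both strands, in 34 members with a promoter in the RefSeq table. The background was 27305 windows of the same length, a window for each gene of that table, not selected by gene type or expression. PSMA7, PSMB1, PSMB6, PSMB7 and PSMD4 were not matched. The core of the antioxidant response element, TGACNNNGC, was present in 8 members, which is 23.5% against 11.1% of all windows. These were PSMB3, PSMD3, PSMD5, PSMD9, PSMD12, PSME1, PSME2 and PSME4, and PSME4 was the only called member among them. The GC box GGGCGG was present in 22 members, or 64.7% against 42.2%, the CCAAT box in 15, or 44.1% against 33.1%, and the ETS site CCGGAAG in 9, or 26.5% against 8.79%. The core letters of the hypoxia response element, ACGTG, were present in 7 members, or 20.6% against 18.7%, and PSME3, where they form an E-box with CACGTG, was the only called member among them. Of the sites tied to interferon, the STAT site TTCNNNGAA was present in 5 members, or 14.7% against 6.78%, and the IRF site GAAANNGAA in 3, or 8.82% against 7.08%. Some of these motifs can overlap, as the GC boxes and the ETS site do in PSME4, and a match describes letters and not binding.

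The mean over the 39 members was lower in every hypoxia array than in any normoxia array. It was 11.92, 11.82 and 11.90 on the log2 scale in HPM, 12.05, 12.10 and 12.07 in HPC, 12.35, 12.36 and 12.28 in NPM and 12.44, 12.51 and 12.35 in NPC. Each of the 6 hypoxia arrays lay below each of the 6 normoxia arrays, and HPM lay below HPC in every array, whereas NPM and NPC met at 12.36 and 12.35. The group means were 11.88 ± 0.05, 12.08 ± 0.02, 12.33 ± 0.05 and 12.43 ± 0.08 in HPM, HPC, NPM and NPC (SD, n = 3 each). Since the RNA comes from whole cultures of 1 cell line, fewer cells that express a gene and less RNA in each cell cannot be told apart. The same order held in the alpha ring, the beta ring, the ATPases and the other cap proteins, whereas the activators were highest in NPM (13.07 ± 0.06) and next in NPC (12.79 ± 0.03).

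**Figure D1:**
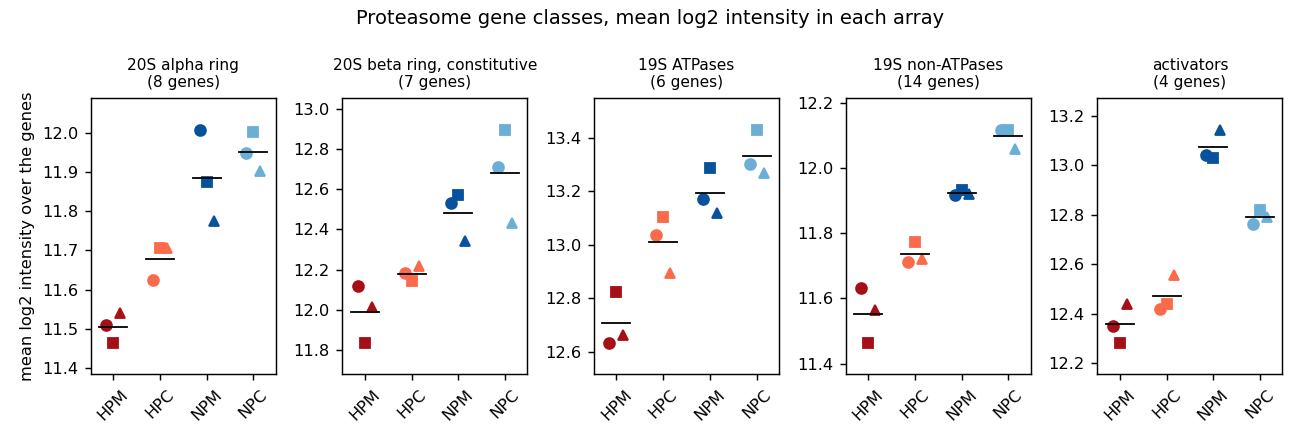
Mean log2 intensity of each class of proteasome genes in each array (vertical axes, with a range of their own in each panel), for HPM, HPC, NPM and NPC (horizontal axis, 3 arrays each, circles, squares and triangles for replicates 1, 2 and 3, line for the group mean). In every class the 6 hypoxia arrays lie below the 6 normoxia arrays, and only the activators lie higher in NPM, at 13.03 to 13.14, than in NPC, at 12.76 to 12.82.

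Across single genes HPM had the lowest mean of the 4 groups in 28 members, which is 71.8% against 31.9% of all features, and NPC had the highest in 27, or 69.2% against 27.2%. The full order of HPM below HPC below NPM below NPC was found for 18 members (46.2%, against 9.58% of all features). In 11 members (28.2%, against 3.98%) every hypoxia array was below every normoxia array, namely PSMA2, PSMA4, PSMB2, PSMB7, PSMC1, PSMC2, PSMC5, PSMD2, PSMD3, PSMD11 and PSME3.

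Hypoxia was compared with normoxia in the presence of TAMs first. In HPM vs NPM, 8 members fell at an adjusted p under 0.05 (limma, Benjamini-Hochberg over 34487 features) and none rose. This is 20.5% of the members, whereas 5.79% of all features were called lower and 4.65% higher, and 10.4% were called in either direction. At an unadjusted p under 0.05 it was 20 members lower and 0 higher, against 14.9% and 13% of all features. Of the 39 members 36 had a negative log2 fold change, with a median of -0.47, whereas 49.8% of all features were positive with a median of -0.0019. The groups did not overlap in 24 members that were lower and 1 that was higher, PSMD8 (background 18.2% and 16.3%).

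The calls, like those over all features, depended on single arrays. Without NPM replicate 1 or NPM replicate 2 no member was called, where 1.93% and 0.554% of all features were. Without HPM replicate 2 or HPM replicate 3 there were 3 members (1.97% and 3.27% of all features). Without HPM replicate 1 or NPM replicate 3 there were 5 (4.28% and 5.66% of all features). In each of these fits 14 to 18 members were lower at an unadjusted p under 0.05. No log2 fold change of the 8 members changed sign in any of these fits. PSMB2, PSMD2 and PSME4 were called in 0 of the 6 fits.

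In the alpha ring, which forms the gate of the core, PSMA4 was the subunit called lower in HPM vs NPM. Its log2 intensity was 12.07, 11.59 and 11.90 in HPM, 12.49, 12.40 and 12.39 in HPC, 12.99, 12.82 and 12.94 in NPM and 12.69, 12.93 and 12.93 in NPC. The HPM arrays were the 3 lowest of the 12, the HPC arrays came next, and neither overlapped the normoxia arrays. In HPM vs NPM PSMA4 changed by -1.07 on the log2 scale (SE 0.175, adjusted p = 0.0188 in limma).

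The other alpha subunits gave differences between -0.57 and 0.05 in HPM vs NPM, and PSMA2, PSMA6 and PSMA7 had an unadjusted p under 0.05. PSMA6 was 13.25, 12.76 and 13.50 in HPM, 12.86, 12.89 and 13.04 in HPC, 13.81, 13.75 and 13.65 in NPM and 13.33, 13.46 and 13.49 in NPC. NPM stood above the other groups, and HPM overlapped both HPC and NPC. PSMA5 was 10.78, 10.74 and 10.71 in HPM, 11.15, 11.01 and 10.92 in HPC, 10.95, 11.23 and 10.21 in NPM and 11.49, 11.53 and 11.04 in NPC, so that its HPM arrays were the most alike and its NPM arrays, with replicate 3 lowest, the most spread.

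PSMA1 was the alpha subunit with a positive difference in HPM vs NPM, and its features disagreed. The brighter feature gave 12.95, 12.88 and 12.80 in HPM, 12.60, 13.01 and 12.49 in HPC, 12.56, 13.06 and 12.86 in NPM and 13.13, 13.04 and 12.87 in NPC, with HPM inside the range of NPM and a log2 fold change of 0.05. The other feature gave a log2 fold change of -0.48, with HPM at 11.48, 11.96 and 12.02 below NPM at 12.32, 12.18 and 12.41 (unadjusted p = 0.0429, adjusted p = 0.164). PSMA8, which replaces another alpha subunit in the testis proteasome, was dim on every array, with 6.52, 7.54 and 6.88 in HPM, 7.01, 7.11 and 7.36 in HPC, 7.45, 6.55 and 7.36 in NPM and 6.27, 6.48 and 6.93 in NPC.

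In the beta ring all 7 subunits had negative differences in HPM vs NPM, between -0.64 and -0.21, and PSMB2 was the one called. PSMB2 was 12.68, 12.56 and 12.58 in HPM, 12.68, 12.72 and 12.57 in HPC, 13.17, 13.13 and 13.21 in NPM and 13.47, 13.36 and 12.76 in NPC. Both hypoxia groups lay at one level below normoxia, and NPC replicate 3 was the normoxia array closest to them. The log2 fold change of HPM vs NPM was -0.56 (SE 0.135, adjusted p = 0.0468 in limma).

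The catalytic subunits of the constitutive core are PSMB5, PSMB6 and PSMB7. PSMB5, which carries the chymotrypsin-like site, was 11.30, 11.39 and 11.36 in HPM, 11.63, 11.94 and 11.66 in HPC, 11.78, 12.04 and 11.93 in NPM and 12.16, 12.57 and 12.12 in NPC. It followed the full order of group means, and its log2 fold change in HPM vs NPM of -0.57 (SE 0.144) had an adjusted p of 0.0541 in limma, just outside the threshold. PSMB7, with the trypsin-like site, was 12.14, 12.25 and 12.23 in HPM, 12.19, 12.26 and 12.11 in HPC, 12.57, 12.50 and 12.71 in NPM and 12.39, 12.64 and 12.58 in NPC. Its hypoxia groups were level with each other and below normoxia, and the difference of HPM vs NPM was -0.39 (adjusted p = 0.134 in limma).

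PSMB6, with the caspase-like site, was 11.48, 11.08 and 11.04 in HPM, 11.36, 10.92 and 11.25 in HPC, 11.69, 11.44 and 11.12 in NPM and 11.79, 11.96 and 11.85 in NPC. Only NPC stood apart, above the other groups, and the log2 fold change of HPM vs NPM was -0.21 (adjusted p = 0.569 in limma). PSMB3 was 11.62, 10.85 and 11.40 in HPM, 11.60, 11.17 and 11.75 in HPC, 12.01, 12.13 and 11.30 in NPM and 12.20, 12.48 and 11.87 in NPC, with NPM replicate 3 inside the range of the hypoxia arrays.

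Of the ATPases of the cap, which unfold the substrate, PSMC2 and PSMC5 were called lower in HPM vs NPM. The other 4 gave differences between -0.37 and -0.01. PSMC2 was 13.15, 13.00 and 12.94 in HPM, 13.52, 13.61 and 13.40 in HPC, 14.15, 14.11 and 14.11 in NPM and 14.18, 14.16 and 14.06 in NPC. The hypoxia groups were each apart from every other group, whereas NPM and NPC overlapped. The log2 fold change of HPM vs NPM was -1.09 (SE 0.140, adjusted p = 0.0110 in limma), the smallest adjusted p among the members.

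PSMC5 was 11.49, 11.53 and 11.55 in HPM, 12.23, 12.33 and 12.29 in HPC, 12.52, 12.39 and 12.49 in NPM and 12.72, 12.77 and 12.72 in NPC. No group overlapped another, and the step between HPM and HPC was larger than that between any other neighbours in the order. In HPM vs NPM PSMC5 changed by -0.95 on the log2 scale (SE 0.135, adjusted p = 0.0137 in limma).

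Among the 14 other cap proteins, PSMD11 and PSMD2 were called lower in HPM vs NPM. PSMD11, a scaffold protein that clamps the cap to the core, was 12.05, 12.41 and 12.27 in HPM, 12.73, 12.84 and 12.65 in HPC, 13.27, 13.17 and 13.36 in NPM and 13.42, 13.12 and 13.19 in NPC. Its hypoxia groups were apart from each other and from normoxia, and its normoxia groups overlapped. In HPM vs NPM PSMD11 changed by -1.02 on the log2 scale (SE 0.159, adjusted p = 0.0169 in limma).

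PSMD2, the large subunit at which ubiquitin receptors dock, was 12.61, 12.62 and 12.63 in HPM, 11.80, 12.41 and 12.43 in HPC, 13.37, 13.25 and 13.24 in NPM and 13.27, 13.53 and 13.13 in NPC. Here HPC and not HPM was the lowest group, with HPC replicate 1 far below the other 2 arrays. In HPM vs NPM PSMD2 changed by -0.67 on the log2 scale (SE 0.134, adjusted p = 0.0305 in limma).

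The remaining cap proteins included PSMD1 with -0.65 (adjusted p = 0.0639 in limma) and PSMD14, the enzyme that cuts ubiquitin off the substrate, with -0.49 (adjusted p = 0.0727 in limma). PSMD14 was 11.56, 11.65 and 11.66 in HPM, 12.19, 12.05 and 12.17 in HPC, 12.14, 12.19 and 12.01 in NPM and 12.31, 12.17 and 12.14 in NPC. The HPM arrays stood alone below the other 9 arrays, which overlapped.

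PSMD4 and PSMD8 had positive differences in HPM vs NPM, of 0.23 and 0.26. PSMD4, a ubiquitin receptor of the cap, was 12.69, 12.86 and 12.63 in HPM, 12.38, 12.70 and 12.70 in HPC, 12.44, 12.74 and 12.31 in NPM and 12.55, 12.76 and 12.55 in NPC, and all 4 groups overlapped. PSMD8, which joins the lid of the cap, was 14.36, 14.44 and 14.41 in HPM, 14.16, 14.31 and 14.37 in HPC, 14.36, 13.88 and 14.18 in NPM and 14.50, 14.21 and 14.47 in NPC, with HPM just above the highest NPM array (adjusted p = 0.370 in limma). PSMD12 was dim and variable, with 7.63, 5.88 and 6.55 in HPM, 7.52, 7.18 and 6.07 in HPC, 7.08, 7.33 and 7.64 in NPM and 7.36, 7.91 and 6.97 in NPC.

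All 4 activators had negative differences in HPM vs NPM with an unadjusted p under 0.05, and PSME3 and PSME4 were called. PSME3, the activator found in the nucleus, was 11.14, 10.97 and 11.34 in HPM, 11.62, 11.50 and 11.75 in HPC, 12.41, 12.33 and 12.29 in NPM and 12.07, 12.41 and 12.37 in NPC. The hypoxia groups were apart from each other and from normoxia, and the log2 fold change of -1.19 (SE 0.157, adjusted p = 0.0119 in limma) was the largest of the 39 members in size. PSME4, the single large activator also known for its work on histones, was 12.62, 12.63 and 12.77 in HPM, 12.91, 12.63 and 12.79 in HPC, 13.19, 13.36 and 13.30 in NPM and 13.45, 13.25 and 12.86 in NPC. HPM and HPC overlapped, NPC replicate 3 reached down to the range of HPC, and the log2 fold change of HPM vs NPM was -0.61 (SE 0.141, adjusted p = 0.0439 in limma).

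PSME1 and PSME2 form together the activator that interferon-gamma induces. PSME2 was 13.21, 13.00 and 12.95 in HPM, 13.26, 13.12 and 13.38 in HPC, 13.66, 13.41 and 13.87 in NPM and 13.28, 13.39 and 13.71 in NPC. HPM was below NPM without overlap (log2 fold change -0.59, adjusted p = 0.0833 in limma), and NPM overlapped NPC. PSME1 gave -0.47 in HPM vs NPM (adjusted p = 0.0987 in limma), and its arrays are given with the effect of co-culture.

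**Figure D2:**
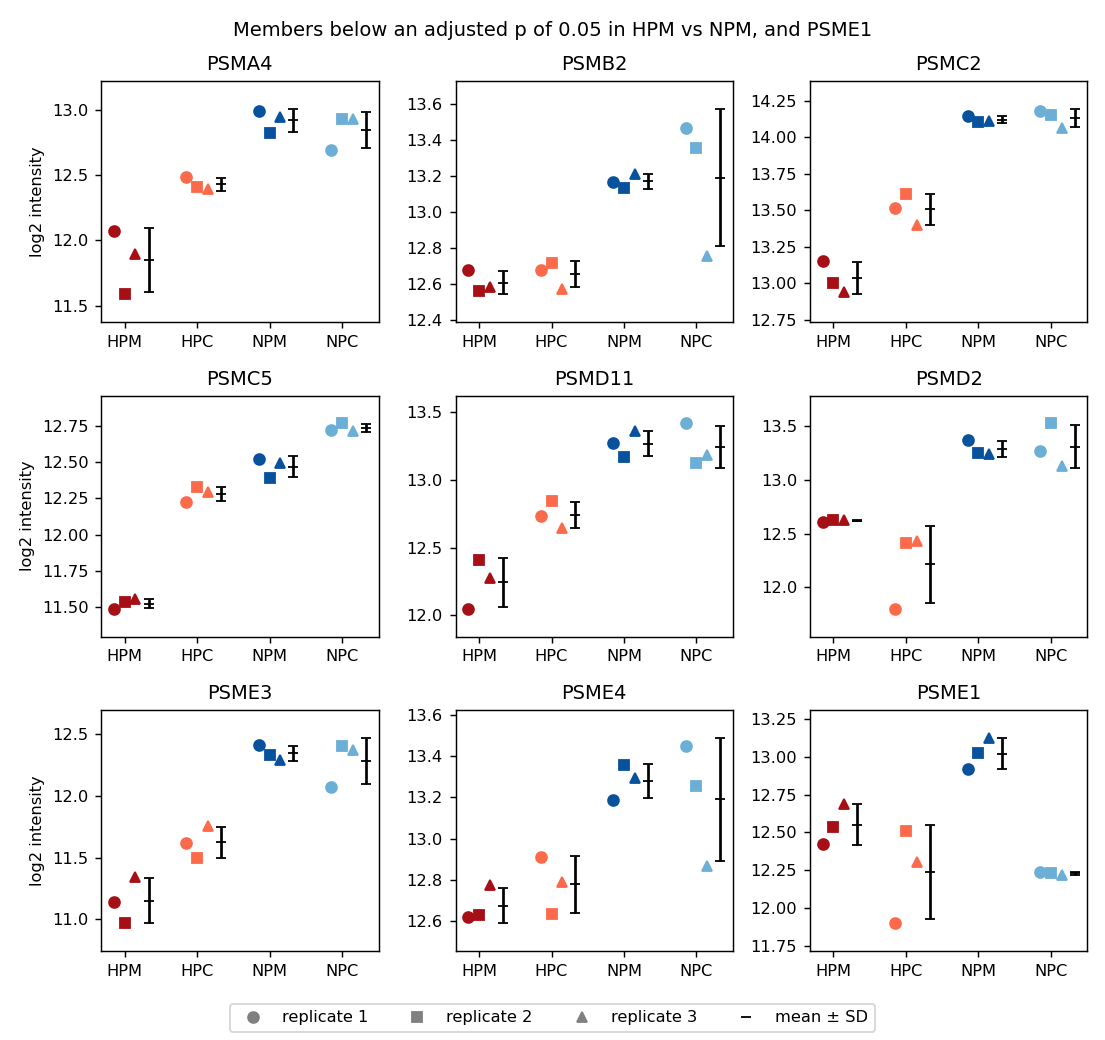
Log2 intensity (vertical axes, with a range of their own in each panel) of the 8 members called in HPM vs NPM and of PSME1, in HPM, HPC, NPM and NPC (horizontal axis). Circles, squares and triangles are replicates 1, 2 and 3, and the bars give the mean ± SD. PSMC2, with HPM at 12.94 to 13.15 and NPM at 14.11 to 14.15, and PSME3, with HPM at 10.97 to 11.34 and NPM at 12.29 to 12.41, show the widest gaps, and PSME1 shows NPM above all other groups.

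Hypoxia was then compared with normoxia in PANC-1 cells alone. In HPC vs NPC no member was called at an adjusted p under 0.05 in limma, where 0.157% of all features were called. At an unadjusted p under 0.05, 15 members were lower and 1 was higher, against 8.9% and 8.92% of all features. Negative log2 fold changes were found in 37 of the 39 members, with a median of -0.41, whereas 49.9% of all features were positive with a median of -0.0005. The groups did not overlap in 22 members that were lower and 1 that was higher (background 13.5% and 12.3%). With all 12 arrays in one fit 5 members were called lower, where 4.21% of all features were called in either direction. With the trend and robust settings of limma 7 were called lower, where 4.75% of all features were called in either direction.

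PSMD2, PSMB6 and PSMB3 had the largest negative differences in HPC vs NPC. PSMD2 gave -1.09 (SE 0.228, unadjusted p = 0.00213, adjusted p = 0.100), with the 3 HPC arrays below the 3 NPC arrays. PSMB6 gave -0.69 (SE 0.175, adjusted p = 0.130) and PSMB3 gave -0.68 (SE 0.235, adjusted p = 0.214), both without overlap between the groups. In the beta ring 5 of 7 subunits had an unadjusted p under 0.05 in this comparison, PSMB4 and PSMB7 being the others, and the median of the ring was -0.54. PSMA8, at a dim signal, was the member that was higher (0.60, adjusted p = 0.228 in limma), and PSME1 was level (0.01, adjusted p = 0.990 in limma).

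HPM vs NPM and HPC vs NPC share no array, but same-numbered arrays deviated together within an oxygen level, so that the comparisons are not independent and the counts over both are descriptions. The difference was negative in both for 34 members, which is 87.2% against 34.4% of all features and 40.1% of the features above the 75th percentile of signal. The groups did not overlap in either comparison, with hypoxia lower, for 17 members (43.6%, against 7.11% of all features and 11.7% of those above the 75th percentile), and no member had a positive difference in both, which 34.2% of all features had. The log2 fold changes of the 39 members had a Pearson correlation of 0.521 between the comparisons, and all features had 0.528, where the points come from the same 12 arrays and genes are not independent replicates. PSMA8 and PSME1 were positive only in HPC vs NPC, and PSMA1, PSMD4 and PSMD8 only in HPM vs NPM, where PSME1 and PSMA8 were negative.

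**Figure D3:**
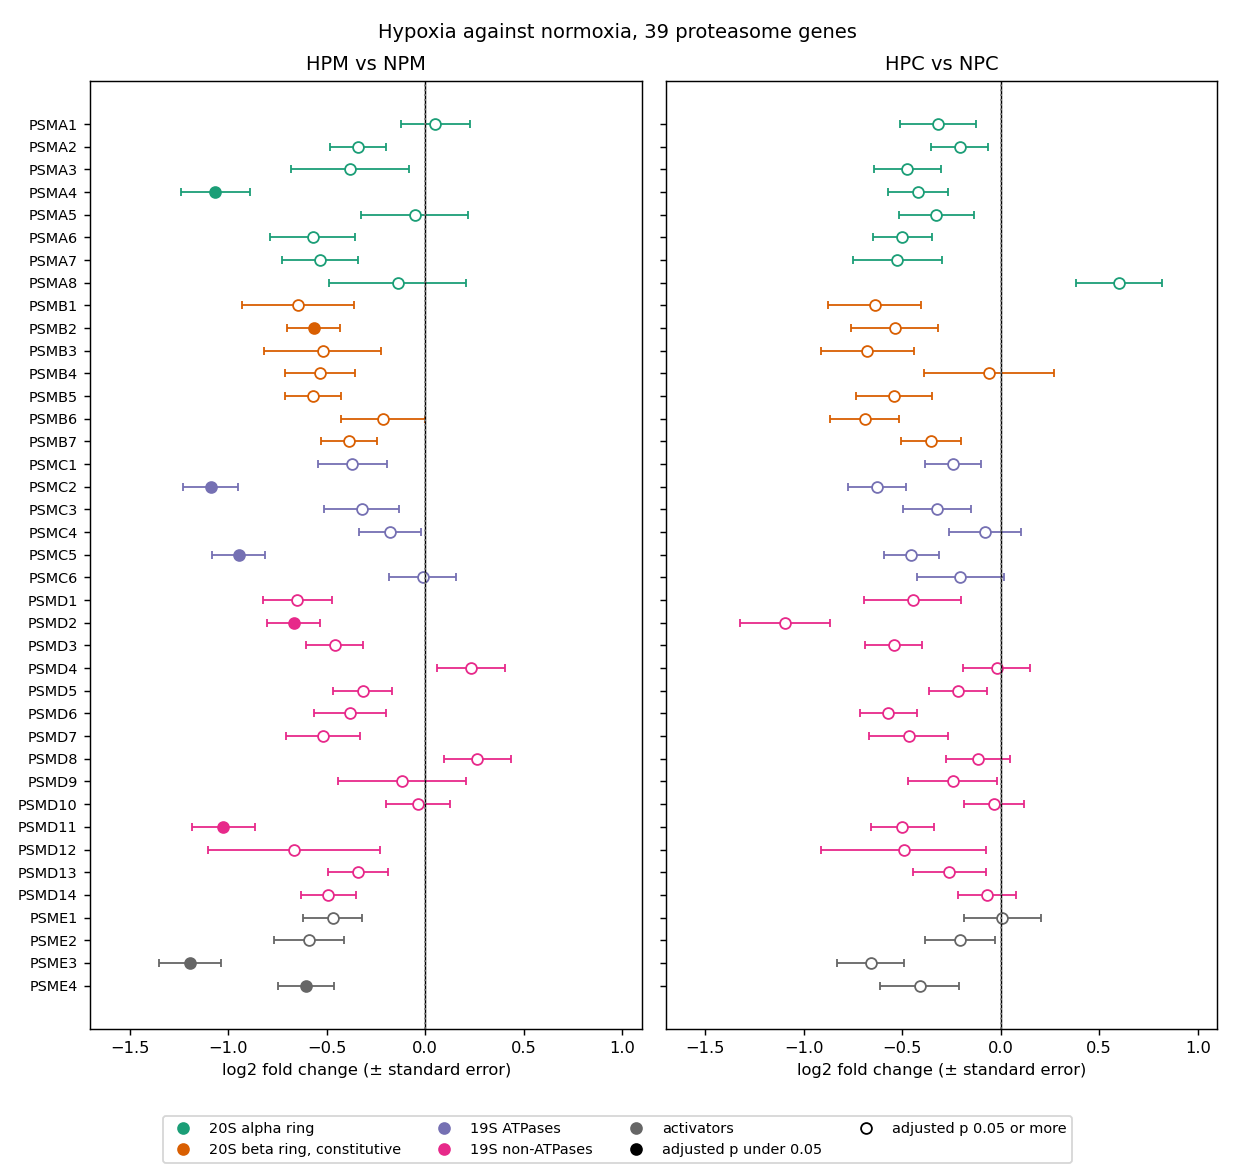
Log2 fold change with its standard error (horizontal axis) of each of the 39 members (vertical axis, grouped by class in colour) in HPM vs NPM (left) and HPC vs NPC (right), with filled points for an adjusted p under 0.05 in limma and a dotted line at the median of all features. Nearly all points lie left of 0, 36 of 39 on the left panel and 37 of 39 on the right, and the 8 filled points are all in HPM vs NPM.

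Co-culture with TAMs was compared within each oxygen level. In NPM vs NPC no member was called at an adjusted p under 0.05 in limma, where 0.0232% of all features were called. At an unadjusted p under 0.05, 5 members were lower (PSMA7, PSMB6, PSMD6, PSMD9 and PSMD10) and PSME1 was higher, against 8% and 5.65% of all features. The 5 became 1 or 2 in each fit that left out a single array, whichever of the 6 it was, 2 after centring each array on its median, and 3 with repeated quantile normalization or with a replicate block, and 8 with that block within oxygen level over 12 arrays. The median over the members was -0.09, and 10 of 39 were positive, where 49.1% of all features were and their median was -0.0087. All 6 ATPases and 13 of the other 14 cap proteins were negative, whereas the 4 activators were all positive with a median of 0.14. The groups did not overlap in 8 members that were lower and 2 that were higher, PSMA6 and PSME1 (background 12.6% and 8.84%).

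PSME1 had the largest difference of the members in NPM vs NPC. It was 12.42, 12.54 and 12.69 in HPM, 11.90, 12.51 and 12.31 in HPC, 12.92, 13.03 and 13.12 in NPM and 12.24, 12.23 and 12.22 in NPC. NPM lay above the arrays of all other groups, and the NPC arrays were nearly equal. The log2 fold change of NPM vs NPC was 0.79 (SE 0.141, unadjusted p = 0.000998, adjusted p = 0.113 in limma), and the other feature of PSME1 gave 0.71 (adjusted p = 0.147).

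The adjusted p of PSME1 in NPM vs NPC was under 0.05 in 4 of 11 other fits, with a range of 0.00995 to 0.30, and in none of the 6 fits that left out an array. A block for same-numbered arrays over all 12 arrays was among the 4, and the block over the 6 arrays alone was not. PSME2 gave 0.18 in NPM vs NPC (adjusted p = 0.733 in limma) with overlapping groups.

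PSMD9 and PSMA5 had the largest negative differences in NPM vs NPC. PSMD9, a chaperone of cap assembly, was 9.45, 8.19 and 9.12 in HPM, 9.23, 9.26 and 9.60 in HPC, 9.11, 8.92 and 9.09 in NPM and 9.88, 9.21 and 9.74 in NPC. NPM was below NPC without overlap (-0.57, adjusted p = 0.313 in limma), and HPM replicate 2 was the lowest array by far. PSMA5 gave -0.56 with overlapping groups (adjusted p = 0.473 in limma), and PSMB6 gave -0.45 without overlap (adjusted p = 0.365 in limma).

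In HPM vs HPC no member was called at an adjusted p under 0.05 in limma, where 1.02% of all features were called. At an unadjusted p under 0.05, 8 members were lower and 0 higher, against 12.5% and 8% of all features. The 8 became 4 without HPM replicate 1, and 5 without HPM replicate 2 or HPC replicate 2. The median over the members was -0.21 and 10 of 39 were positive, where 48.5% of all features were and their median was -0.02. The groups did not overlap in 12 members that were lower and 1 that was higher, PSMD2 (background 16.4% and 11.3%). When replicate numbers entered as a block over all 12 arrays, kept apart by oxygen level, 2 members were called lower. In that fit 8.39% of all features were called in either direction. With the block over the 6 arrays alone 0 members and 0% of all features were called.

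PSMC5 had the largest negative difference in HPM vs HPC, -0.76 (SE 0.127, adjusted p = 0.0530 in limma), just outside the threshold, and its adjusted p was under 0.05 in 5 of 11 other fits and in 0 of the 6 that left out an array, where it was 0.116 to 0.203. PSMA4 gave -0.58 (adjusted p = 0.129 in limma) and PSMD14 gave -0.51 (adjusted p = 0.101 in limma), both without overlap between the groups. The largest positive differences were those of PSMD2 (0.41, adjusted p = 0.322 in limma), PSME1 (0.31, adjusted p = 0.430 in limma) and PSMA6 (0.24, adjusted p = 0.593 in limma). The HPM arrays enter both HPM vs HPC and HPM vs NPM, so that the low HPM values of PSMC5, PSMA4 and PSMD14 appear in both comparisons.

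NPM vs NPC and HPM vs HPC share no array either. The difference was negative in both for 22 members (56.4%, against 31.8% of all features and 37.6% of those above the 75th percentile of signal) and positive in both for PSMA6, PSMB7 and PSME1 (7.69%, against 29.3%). In PSMB5, PSMC5, PSMD5 and PSMD10 the co-culture arrays lay below those of cells alone without overlap at both oxygen levels. This is 10.3% of the members, against 4.89% of all features and 8.18% of those above the 75th percentile of signal. An interaction term over the 12 arrays tested whether the co-culture effects differed, and no member was called at an adjusted p under 0.05 in limma, where 0.452% of all features were called. At an unadjusted p under 0.05, 6 members had a more negative effect under hypoxia and 0 a more positive one (background 6.35% and 5.09%). The smallest p was that of PSMC5, with a difference of -0.49 (SE 0.158, unadjusted p = 0.0102, adjusted p = 0.243), and the others were PSMA4, PSMC2, PSMD11, PSMD14 and PSME3.

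**Figure D4:**
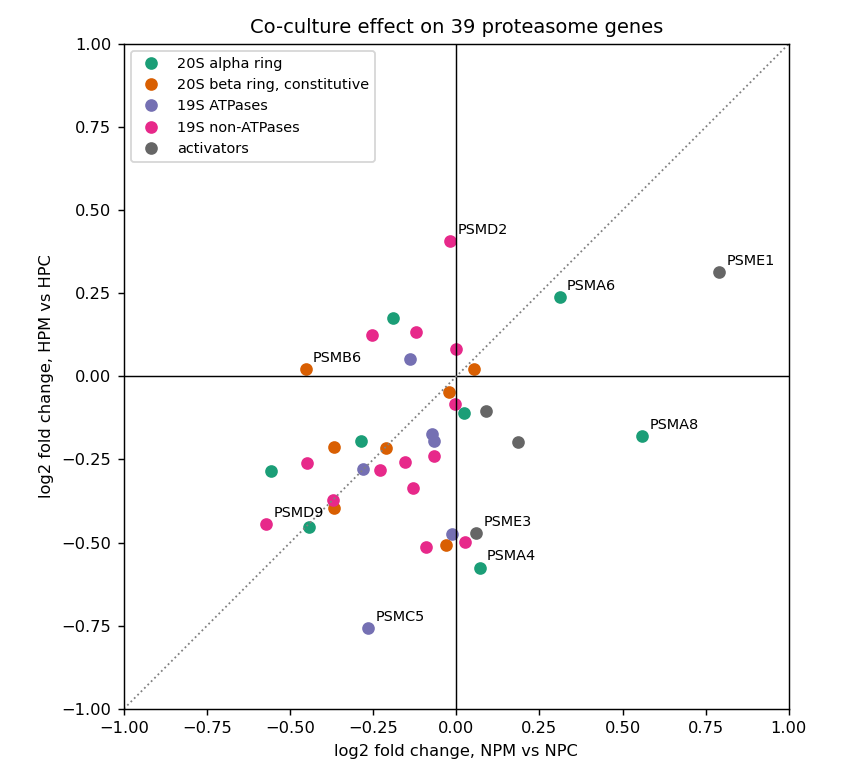
Log2 fold change of HPM vs HPC (vertical axis) against that of NPM vs NPC (horizontal axis) for each of the 39 members (points, coloured by class), with a dotted line of equal effects. Most points, 22 of 39, lie below 0 on both axes, PSME1 lies farthest to the right at 0.79 with 0.31 on the vertical axis, and PSMC5 is lowest at -0.76.

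The immunoproteasome subunits, which replace the catalytic subunits after exposure to interferon-gamma, were measured as well. All 3 were positive in NPM vs NPC and in HPM vs HPC, and all 3 were negative in HPM vs NPM, with none called at an adjusted p under 0.05. PSMB9, which takes the place of PSMB6, was 13.62, 13.57 and 13.49 in HPM, 12.93, 13.05 and 13.09 in HPC, 13.92, 14.05 and 14.00 in NPM and 13.07, 12.97 and 12.97 in NPC. Both co-culture groups were above both groups of cells alone, which overlapped, with log2 fold changes of 0.98 in NPM vs NPC (adjusted p = 0.0843 in limma) and 0.54 in HPM vs HPC (adjusted p = 0.0968 in limma).

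PSMB10, which takes the place of PSMB7, was 10.20, 9.78 and 10.16 in HPM, 9.35, 9.65 and 9.95 in HPC, 11.01, 11.30 and 10.58 in NPM and 10.19, 10.27 and 10.23 in NPC. NPM was the highest group, and the log2 fold change was 0.73 in NPM vs NPC (adjusted p = 0.220 in limma) and -0.91 in HPM vs NPM (adjusted p = 0.0558 in limma). PSMB8, which takes the place of PSMB5, gave 0.59 in NPM vs NPC (adjusted p = 0.389 in limma) and 0.41 in HPM vs HPC (adjusted p = 0.189 in limma). PSMB5, PSMB6 and PSMB7 had log2 fold changes of -0.37, -0.45 and 0.05 in NPM vs NPC.

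Of 6 further chaperones that assemble the proteasome, which are not members, 5 were measured, without PSMG4. In HPM vs NPM 1 was called higher and 0 lower, where 4.65% and 5.79% of all features were. PAAF1, which binds ATPases of the cap and was the one called, was 11.50, 11.83 and 11.57 in HPM, 11.63, 11.60 and 11.52 in HPC, 11.00, 10.87 and 10.84 in NPM and 11.11, 11.32 and 11.34 in NPC. The hypoxia arrays were all above the normoxia arrays, and the gene rose by 0.73 on the log2 scale in HPM vs NPM (adjusted p = 0.0353 in limma). The core chaperones POMP, PSMG1 and PSMG3 gave -0.74, -0.60 and -0.58 in HPM vs NPM, all without overlap and with adjusted p of 0.0801, 0.0687 and 0.0576 in limma, whereas PSMG2, the partner of PSMG1, gave 0.36 with overlapping groups (adjusted p = 0.602). In HPM vs HPC PSMG1 gave -0.79 (adjusted p = 0.0885 in limma), and in NPM vs NPC all 5 were negative with none called.

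Of the proteins that associate with the proteasome 17 of 18 were measured, without ECPAS. UBQLN1, a shuttle for ubiquitin-tagged proteins, was the one called in HPM vs NPM, where 10.4% of all features were called in either direction. It gave -0.89 in HPM vs NPM (adjusted p = 0.0463 in limma) and -0.93 in HPC vs NPC (adjusted p = 0.196 in limma), without overlap in either. ADRM1, a ubiquitin receptor of the cap, gave -0.52 in HPM vs NPM and -0.49 in HPM vs HPC, with adjusted p of 0.104 and 0.209 in limma. None of the 17 was called in the other comparisons, in which RAD23B and UCHL5 had the smallest p in NPM vs NPC, with -0.48 and -0.45.

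The 8 genes listed for the NRF1 axis were NFE2L1, those of proteins that release and cut NRF1 and of its small MAF partners, and NFE2L2, which encodes the related factor NRF2. MAFF was called higher in HPM vs NPM and none was called lower, where 4.65% and 5.79% of all features were. MAFF was 11.04, 11.42 and 11.08 in HPM, 10.29, 10.57 and 10.57 in HPC, 9.88, 9.76 and 9.92 in NPM and 9.31, 9.75 and 9.52 in NPC. No group overlapped another, and the log2 fold change of HPM vs NPM was 1.32 (SE 0.165, adjusted p = 0.0105 in limma). The group means of MAFF were in the reverse order of those of 18 proteasome genes, of which only PSMC5 had no overlap between any groups. NFE2L1 was 14.66, 14.61 and 14.23 in HPM, 14.35, 14.34 and 13.87 in HPC, 14.35, 14.33 and 14.25 in NPM and 13.65, 13.79 and 13.76 in NPC. Only NPC stood apart, below the other groups, with 0.58 in NPM vs NPC (adjusted p = 0.168 in limma) and 0.45 in HPC vs NPC (adjusted p = 0.272 in limma). DDI2, the protease that cuts NRF1, gave -0.73 in HPM vs NPM (adjusted p = 0.0738 in limma).

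Of 12 ubiquitin and p97 genes, NPLOC4, a cofactor of the p97 segregase, was called lower in HPM vs NPM (-0.89, adjusted p = 0.0280 in limma) and none higher. Of all features 5.79% were called lower and 4.65% higher in this comparison. VCP, which encodes p97 itself, gave -1.13 in HPM vs NPM (adjusted p = 0.0714 in limma) and -0.69 in HPC vs NPC (adjusted p = 0.184 in limma), without overlap in either. UFD1, the partner of NPLOC4, had the smallest p of these genes in NPM vs NPC and in HPM vs HPC, with -0.57 and -0.64 and adjusted p of 0.267 and 0.125 in limma.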

How the data were processed

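The deposited values were intensities on a linear scale, 1 column for each of the 12 arrays. Per the study's methods the authors scanned the arrays with GenePix Pro, and aligned the images and applied quantile normalization and RMA, which summarises several probes into 1 value per target, in NimbleScan before using GeneSpring. The study's methods name a NimbleGen array and the series description an Arraystar array, and no measure of background was used. The methods state more targets than the table has features, and how these were selected is not stated in them, so that shares of all features refer to this table. The values were log2-transformed. The platform annotation named 14133 of the 34487 features and RefSeq accessions (GRCh38.p14) a further 542, and 19812 features had no name.

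Each feature was tested with limma 3.58.1 in R 4.3.3 (lmFit and eBayes, both directions), using the 6 arrays of a comparison or, for the interaction, all 12. A feature counts as called when its p, adjusted by Benjamini-Hochberg across the whole table, is under 0.05, and no further filter was applied. Every member is covered by counts. Values in every array are given for members called, the 3 largest differences in each direction of each comparison, the catalytic subunits and the activators, and PSMD12 was added after its values were seen. For related lists the 2 genes with the smallest p in each comparison were candidates for naming, and POMP and some of these genes in further comparisons were named after their values were seen. The members and lists were chosen with earlier results of these data known, and the lists received no test. The procedure was tested on simulated data.

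Arrays with the same number in the labels deviated together within an oxygen level: the correlations of their deviations from the group means were 0.34, 0.28 and 0.52 between NPM and NPC and 0.50, 0.27 and 0.54 between HPM and HPC, all above the limit of 0.1. The alternatives were repeated quantile normalization, centring on the array median, dropping dim features (under the 25th percentile), all 12 arrays in one fit, replicate blocks, the methods' t-test, trend and robust settings, other features of a gene and leaving out arrays. Figures were drawn with matplotlib 3.10.9. The number of arrays limits the precision.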

Additional observations from a re-analysis of the deposited data

Results flagged for a closer look

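LCP1, one of the macrophage markers checked and a gene that many carcinoma lines also express, passed the test of a difference between the co-culture effects at the oxygen levels, with a fitted interaction of 2.92 on the log2 scale (SE 0.373, adjusted p = 0.0146 in limma). Its log2 intensity was 5.54, 4.28 and 4.87 in HPM, 5.37, 5.22 and 5.05 in HPC, 3.98, 4.18 and 3.99 in NPM and 7.16, 7.49 and 7.22 in NPC, all under the 25th percentile of the signals. NPC was above and NPM below all other groups. The value of 3.98 in NPM replicate 1 was the lowest of that whole array and no measure of background was used, so that the size of the interaction cannot be read as a difference in expression. No proteasome gene and no gene of the related lists had an interaction with an adjusted p under 0.05.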

How the results depend on the processing

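In this paragraph brackets give the share of all features called in the same fit. The 8 calls in HPM vs NPM (10.4%) became 5 with the replicate block (5.38%) and 17 with trend and robust settings (16.1%). They became 21 with the methods' t-test without adjustment (25.8%), 0 without the arrays numbered 3 (0%) and 0 to 5 when single arrays were left out (0.554% to 5.66%). Same-numbered arrays had correlations of 0.38, 0.010 and 0.20 in HPM vs NPM and 0.24, 0.025 and 0.38 in HPC vs NPC, so that 2 of 3 pairs in each, and not all, passed the limit of 0.1 and the numbers were not taken as pairs. The 0 calls in NPM vs NPC (0.0232%) became 1, PSME1, without dim features (1.3%) and with all 12 arrays in one fit (2.53%). PSME1 was also the 1 called with the replicate block within oxygen level (3.33%) and with trend and robust settings (2.73%). With the unadjusted t-test there were 6 (14%). The 0 calls in HPM vs HPC (1.02%) became 1 without dim features (6.96%), 3 with all 12 arrays (5.47%) and 2 with the replicate block within oxygen level (8.39%). They became 5 with trend and robust settings (6.49%), and 1 (0.67%) and 10 (19.8%) with the adjusted and unadjusted t-test. The 0 calls in HPC vs NPC (0.157%) became 1 without dim features (3.19%), 5 with all 12 arrays (4.21%), 7 with trend and robust settings (4.75%) and 16 with the unadjusted t-test (17.2%).

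With arrays left out one at a time, the median log2 fold change of the members was -0.18 to -0.042 in NPM vs NPC and -0.41 to -0.33 in HPC vs NPC, and -0.50 to -0.41 in HPM vs NPM and -0.24 to -0.17 in HPM vs HPC. The median of the interaction, -0.05, was -0.10 to 0.023 and turned positive without NPC replicate 3. The replicate block changed no other count of calls. The interaction had 0 calls in every fit, with 6 members at an unadjusted p under 0.05 in limma and 0 of them without the arrays numbered 3. Members with an unadjusted p under 0.05 in a comparison kept the sign of that difference in every fit run, whereas PSMA1, which had a larger p, changed sign in HPM vs NPM with its other feature (0.05 against -0.48). The block within oxygen level was not run for the hypoxia comparisons, which it cannot estimate. The cause of these changes was not tested.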
